A study of Mus musculus with 6 samples.

Results

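The 10 genes described here were the G1 cyclins, cyclin-dependent kinases (CDKs) and CDK inhibitors: Ccnd1, Ccnd2, Ccnd3, Ccne1, Ccne2, Cdk4, Cdk6, Cdkn1b, Cdkn2a and Cdkn2c. They were looked up by gene symbol in a table of 54532 mouse genes, and all 10 were found. The set was chosen with earlier results of these data known. Gene expression had been measured by RNA sequencing of T cells collected after co-culture with the mouse ovarian cancer line ID8, to ask how tumour cells exposed to cisplatin change immune cells. The study describes ID8 cells as exposed to cisplatin before the co-culture. The labels name 40 µM cisplatin (cisplatin group, 3 libraries) or PBS (control group, 3 libraries) as the treatment of samples described as T cells and do not mention ID8 cells, so they do not settle which cells met the drug. In both groups the T cells came from spleens of C57BL/6 mice aged 6 to 8 weeks, were kept in 10 ng/mL IL-2, and had been activated with anti-CD3/28 beads for 72 h before co-culture. The control libraries are titled WT, and no genetic change is given for either group. The methods call the replicates biological. Neither they nor the labels state how many mice or separate cultures stood behind them, the ratio of T cells to ID8 cells, the length of the co-culture, or a step that removed ID8 cells before RNA was extracted. The p-values below measure the spread between these libraries, and how much of it is technical is not known.

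D-type cyclins pair with CDK4 or CDK6 once a T cell receives antigen-receptor and IL-2 signals, and these complexes start the phosphorylation of the retinoblastoma protein RB. Cyclin E with CDK2 completes that phosphorylation, which frees E2F factors to switch on the genes of DNA replication and carries the cell from G1 into S phase. Inhibitors of the INK4 family (p16, p18 and others) bind CDK4 and CDK6 alone, whereas p27 and its relatives bind cyclin-CDK complexes, and resting lymphocytes are known for high p27.

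In FPKM as deposited, Ccne1 and Cdkn2c had the highest and the lowest log2 fold change of the 10 genes, so the bases in front of their annotated starts are shown first. Each line gives the 250 bases upstream of a start, 5′ to 3′ on the gene's own strand, from RefSeq on GRCm38.p6, with every GC box (GGGCGG or its reverse complement CCGCCC, a motif bound by Sp family factors) in capitals.
Ccne1, chr7:38107491-38107740, minus strand: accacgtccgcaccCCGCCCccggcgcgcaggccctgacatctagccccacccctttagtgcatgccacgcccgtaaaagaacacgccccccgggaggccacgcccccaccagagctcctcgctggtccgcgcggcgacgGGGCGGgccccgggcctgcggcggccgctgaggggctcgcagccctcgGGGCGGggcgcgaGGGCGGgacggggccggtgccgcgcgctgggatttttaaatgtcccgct
Cdkn2c, upstream start, chr4:109666757-109667006, minus strand: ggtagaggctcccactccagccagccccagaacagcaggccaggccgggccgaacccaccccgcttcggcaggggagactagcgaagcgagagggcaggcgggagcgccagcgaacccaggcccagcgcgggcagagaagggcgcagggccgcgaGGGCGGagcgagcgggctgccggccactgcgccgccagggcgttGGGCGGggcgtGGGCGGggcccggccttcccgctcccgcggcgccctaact
Cdkn2c, downstream start, chr4:109665373-109665622, minus strand: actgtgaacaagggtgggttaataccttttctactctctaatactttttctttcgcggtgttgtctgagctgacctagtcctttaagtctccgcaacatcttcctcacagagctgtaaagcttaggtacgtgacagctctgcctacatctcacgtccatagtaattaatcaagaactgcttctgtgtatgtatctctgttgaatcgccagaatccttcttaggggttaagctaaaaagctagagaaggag
The Ccne1 window held 4 GC boxes and 76% G or C, and the upstream Cdkn2c window held 3 GC boxes and 77.2% G or C. The downstream Cdkn2c window held no GC box and 42.8% G or C. By the gene coordinates of the deposited table, both Cdkn2c windows lie inside the gene, and the Ccne1 window lies partly inside Ccne1. In the RefSeq windows (250 bases before to 50 after each start), 7 of the 10 genes had an entry, with 10 windows between them, and Ccnd1, Ccnd2 and Ccne2 had none. A GC box on either strand was found in 8 of these 10 windows and in 35.7% of all 32851 windows. In the related cell-cycle lists described further on it was found in 70% to 90.9% of windows. An E2F consensus, searched as TTTCGCGC or TTTGGCGC on both strands, was found in 0 of the 10 windows and in 0.813% of all windows. In the related lists it was found in 0% to 36.8% of windows. At 0.813% of all windows, 0 of 10 does not set these genes apart. These matches describe letters in a fixed window and no binding was measured.

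The table gives FPKM, fragments scaled to gene length and to a divisor for each library, which can be compared between genes because it is divided by length. That divisor was on average 1.04 times the rebuilt reads on genes in cisplatin and 0.980 times in control libraries. In control libraries the order of mean FPKM was Cdkn1b, Ccnd2, Cdk4, Ccnd1, Ccnd3, Cdk6, Cdkn2c, Ccne1, Ccne2 and Cdkn2a. Cdk6 and Cdkn2c were neighbours in that order whose libraries overlapped, and no other neighbours overlapped. In cisplatin libraries Cdkn2c moved down to stand between Ccne1 and Ccne2, and Ccnd1 and Ccnd3 were the neighbours whose libraries overlapped. Reads on genes, rebuilt from FPKM and gene length, were 30606569 to 32169496 a library, and the 10 genes differed in depth from 35 reads (Cdkn2a in a control library) to 18957 (Ccnd2 in a control library).

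Of the 10 genes, 6 fell and 1 rose in the cisplatin group. Fold changes are differences of log2(FPKM + 0.1), cisplatin minus control, from limma fitted over 15874 genes averaging 0.5 FPKM or more, a scale that understates the change of low genes. A gene passed at a Benjamini-Hochberg adjusted p under 0.05. Ccnd1, Ccnd2, Cdk4, Cdk6, Cdkn1b and Cdkn2c passed lower, Ccne1 passed higher, and Ccnd3, Ccne2 and Cdkn2a did not pass. Among all genes tested 56.5% passed, 29% lower and 27.5% higher, and the libraries of the groups did not overlap for 64.2% of genes and for 8 of the 10. With a fold change of at least 2 required as well, 16.9% of genes tested were called, and Cdkn2c was the only one of the 10. The median log2 fold change was -0.28 for the 10 genes and 0.03 for all genes tested.

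**Figure D1:**
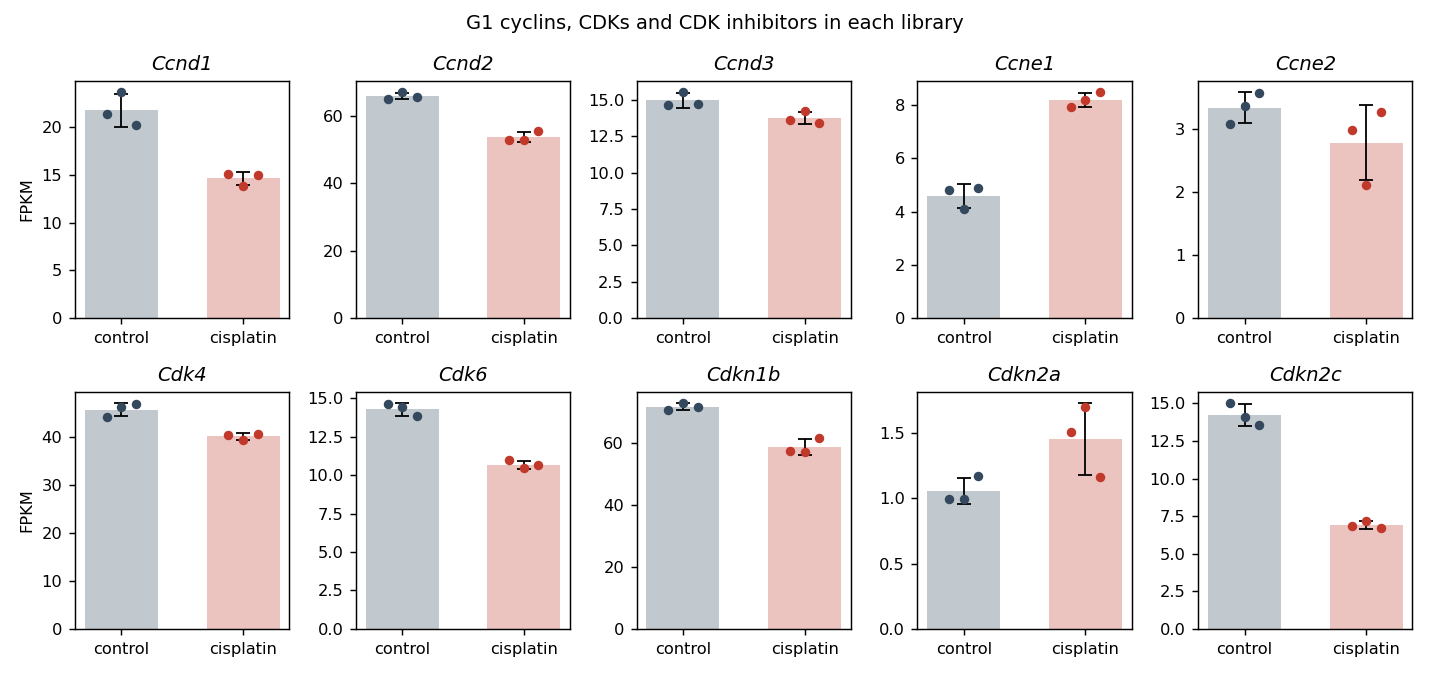
FPKM (vertical axis, from 0, a scale of its own for each gene) of the 10 genes in control and cisplatin libraries, with a point for each library, bars for the mean and error bars for the SD (n = 3). Ccne1 is higher in every cisplatin library, Cdkn2c, Ccnd1, Ccnd2, Cdk6, Cdk4 and Cdkn1b are lower in every one, and the points of Ccne2 and Cdkn2a overlap between groups.

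Ccnd1 and Ccnd2 fell and Ccnd3 did not pass. Ccnd1 (ENSMUSG00000070348, chr7:144929931-144939925, minus strand), which encodes cyclin D1, a cyclin low in most lymphocytes and common in epithelial cells, was at 15.04, 13.86 and 14.98 FPKM in the cisplatin libraries and at 21.4, 23.6 and 20.1 FPKM in the control libraries. Every cisplatin library lay below every control library, and the mean was 67.4% of the control mean. The log2 fold change was -0.56 (SE 0.07, 95% interval -0.73 to -0.40, limma adjusted p = 0.00043). Ccnd2 (ENSMUSG00000000184, chr6:127125162-127152193, minus strand), which encodes cyclin D2, a main D-type cyclin of T cells induced by IL-2, was at 53.0, 53.0 and 55.5 FPKM in the cisplatin libraries and at 65.2, 67.1 and 65.7 FPKM in the control libraries. The groups were again apart, with a smaller difference (log2 fold change -0.29, SE 0.03, 95% interval -0.37 to -0.22, limma adjusted p = 0.00026). Ccnd3 (ENSMUSG00000034165, chr17:47505051-47599691, plus strand), which encodes cyclin D3, needed for the expansion of immature thymocytes, was at 13.6, 14.2 and 13.4 FPKM in the cisplatin libraries and at 14.6, 15.5 and 14.7 FPKM in the control libraries. Its libraries did not overlap, but the log2 fold change of -0.12 (SE 0.04) missed the threshold (limma adjusted p = 0.0516).

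Within a library, the share of each D-type cyclin does not depend on how libraries are scaled against each other. Ccnd2 made up most of the summed FPKM of the D-type cyclins, 65.5% ± 0.65 (SD, n = 3) in cisplatin and 64.3% ± 1.09 in control libraries, and these shares overlapped. Ccnd1 made up 18.4%, 17.1% and 17.9% in the cisplatin libraries and 21.1%, 22.2% and 20.04% in the control libraries. Its share was thus lower in each cisplatin library, by 3.34 percentage points on average. In rebuilt reads, not divided by length, the difference (cisplatin minus control) was -2.06 points for Ccnd1 and 0.082 points for Ccnd2. The share of Ccnd3 was higher in each cisplatin library, 16.7% ± 0.78 against 14.6% ± 0.10. In FPKM the 2 smaller cyclins were thus closer to each other than in controls. In rebuilt reads they were further apart than in controls. There Ccnd3 and Ccnd1 averaged 3939 and 2247 reads in cisplatin libraries and 3968 and 3089 in control libraries. With 3 libraries against 3 the smallest two-sided p an exact permutation test can give is 0.1, which was the p for Ccnd1 and for Ccnd3 (0.2 for Ccnd2), and after adjustment over 7 such measures the values were 0.117, 0.117 and 0.2. The summed FPKM of the D-type cyclins was 82.2 ± 1.496 in cisplatin and 102.6 ± 3.08 in control libraries.

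The E-type cyclins, which activate CDK2 at the end of G1, differed from each other. Ccne1 (ENSMUSG00000002068, chr7:38097984-38107534, minus strand), which encodes cyclin E1, was at 7.93, 8.17 and 8.47 FPKM in the cisplatin libraries (683 to 731 rebuilt reads) and at 4.82, 4.08 and 4.90 FPKM in the control libraries (326 to 400 reads). All cisplatin libraries lay above all control libraries, and the mean was 1.78-fold higher (log2 fold change 0.82, SE 0.08, 95% interval 0.63 to 1.02, limma adjusted p = 0.00017). It was the only one of the 10 genes that rose. Ccne2 (ENSMUSG00000028212, chr4:11191351-11204779, plus strand), which encodes cyclin E2, was at 2.98, 2.12 and 3.27 FPKM in the cisplatin libraries and at 3.09, 3.37 and 3.57 FPKM in the control libraries. The groups overlapped, cisplatin replicate 2 was the lowest of the 6, and no difference was detectable (log2 fold change -0.27, SE 0.17, 95% interval -0.67 to 0.12, limma adjusted p = 0.204). Without cisplatin replicate 2 the log2 fold change was -0.09. The ratio of Ccne2 to Ccne1 was lower in every cisplatin library, with log2 ratios of -1.41, -1.95 and -1.38 against -0.64, -0.28 and -0.46. Ccne2 thus stood at 0.335 of the Ccne1 level in cisplatin libraries and at 0.728 in control libraries (two-sided exact permutation p = 0.1, the smallest possible).

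Both kinases fell, with the greater log2 fold change for Cdk6. Cdk4 (ENSMUSG00000006728, chr10:127063534-127067920, plus strand), a catalytic partner of the D-type cyclins, was at 40.4, 39.2 and 40.5 FPKM in the cisplatin libraries and at 44.1, 46.1 and 46.7 FPKM in the control libraries. The groups were apart by a small margin (log2 fold change -0.19, SE 0.03, limma adjusted p = 0.0032). Cdk6 (ENSMUSG00000040274, chr5:3341485-3531008, plus strand), the other partner, abundant in blood cells, was at 10.97, 10.5 and 10.6 FPKM in the cisplatin libraries and at 14.6, 14.4 and 13.8 FPKM in the control libraries. The mean was 74.8% of the control mean (log2 fold change -0.42, SE 0.04, limma adjusted p = 0.00019). Cdk4 was the higher kinase in all 6 libraries, and the ratio of Cdk6 to Cdk4 was 0.267 in cisplatin and 0.313 in control libraries. The log2 of that ratio was lower in every cisplatin library (-1.90 ± 0.02 against -1.67 ± 0.08, SD, n = 3, two-sided exact permutation p = 0.1).

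The inhibitors were split, with Cdkn2c and Cdkn1b lower and Cdkn2a not past the threshold. Cdkn2c (ENSMUSG00000028551, chr4:109660876-109667189, minus strand), which encodes the INK4 inhibitor p18, was at 6.82, 7.20 and 6.69 FPKM in the cisplatin libraries (582 to 641 rebuilt reads) and at 15.03, 14.1 and 13.6 FPKM in the control libraries (1118 to 1212 reads). The cisplatin mean was 48.5% of the control mean, with a wide gap between the groups (log2 fold change -1.03, SE 0.06, 95% interval -1.17 to -0.90, limma adjusted p = 9.2e-06). This gene lay close to the fold minimum: without control replicate 1 its log2 fold change was -0.99 and none of the 10 genes was called with the minimum, although Cdkn2c still passed the adjusted p. Cdkn1b (ENSMUSG00000003031, chr6:134920401-134925513, plus strand), which encodes p27, an inhibitor of cyclin E-CDK2, was at 57.3, 56.8 and 61.4 FPKM in the cisplatin libraries and at 70.4, 72.7 and 71.5 FPKM in the control libraries. It was the highest of the 10 genes in every library and fell (log2 fold change -0.29, SE 0.04, 95% interval -0.38 to -0.20, limma adjusted p = 0.00071). Cdkn2a (ENSMUSG00000044303, chr4:89274471-89294653, minus strand), whose separate starts encode p16 and the p53 activator p19Arf and are summed in this table, was at 1.503, 1.70 and 1.16 FPKM in the cisplatin libraries and at 0.995, 0.996 and 1.17 FPKM in the control libraries. These values rest on 44 to 66 and 35 to 42 reads, the groups overlapped, and the log2 fold change was 0.42 (SE 0.18, 95% interval -0.02 to 0.86, limma adjusted p = 0.0952).

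Set against the D-type cyclins, the summed inhibitors were slightly lower in each cisplatin library. The summed FPKM of Cdkn1b, Cdkn2a and Cdkn2c was 0.813 of that of the D-type cyclins in cisplatin libraries and 0.846 in control libraries. The log2 ratios were -0.32, -0.30 and -0.28 against -0.23, -0.27 and -0.22, apart by only 0.06 on average. The nearest libraries of the groups, at -0.277 and -0.273, almost touched. Cdkn1b, most of the inhibitor sum, averaged 58.5 FPKM against 82.2 for the D-type cyclins in cisplatin libraries. In control libraries these means were 71.5 and 102.6, so the lower ratio came from Cdkn2c and not from Cdkn1b. The ratio of Cdkn2c to Cdkn1b, 2 inhibitors of different families, was 0.118 against 0.199. It was lower in every cisplatin library, by 0.75 on the log2 scale, and both comparisons gave the smallest two-sided exact permutation p of 0.1.

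**Figure D2:**
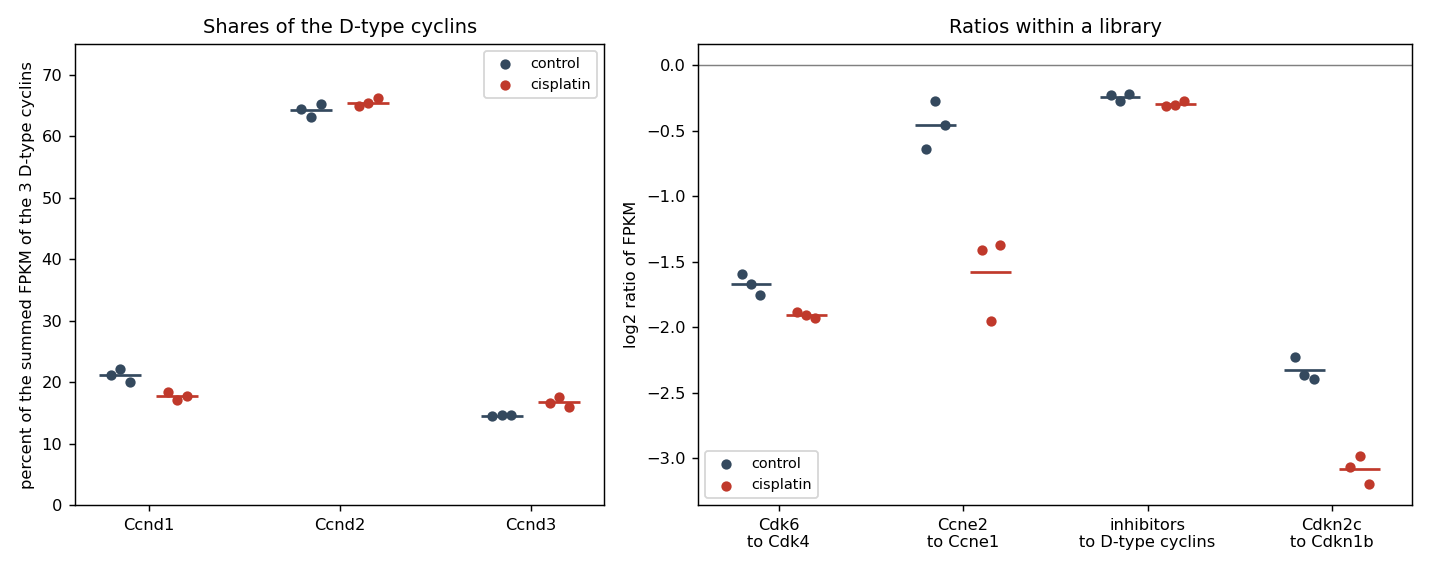
Left, percent of the summed FPKM of the D-type cyclins taken by each, and right, log2 ratios of FPKM between G1 genes, with a point for each library and a line for the mean of 3. The share of Ccnd1 and the ratios of Cdk6 to Cdk4, Ccne2 to Ccne1 and Cdkn2c to Cdkn1b are lower in every cisplatin library, and the share of Ccnd2 overlaps between groups.

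Other cells' RNA differed between the groups. The 8 tested of 12 ID8 tumour-cell markers all fell (median log2 fold change -2.47), and their summed FPKM was 201 to 207 in cisplatin and 1432 to 1503 in control libraries. Krt19, an epithelial keratin, was at 54.5, 51.6 and 52.5 FPKM in the cisplatin libraries and at 651, 661 and 626 FPKM in the control libraries, so ID8 RNA was present in both groups. All 20 T-cell markers were detected and passed higher (median log2 fold change 0.58, summed FPKM 3058 to 3127 against 1933 to 2059), among them Cd3e, a chain of the T-cell receptor complex, at 39.7 ± 0.14 against 31.9 ± 0.70 FPKM (SD, n = 3). All 10 B-cell markers also passed higher (summed 3652 to 3724 against 1710 to 1798), as did 7 of the 9 tested of 12 myeloid markers (summed over the list 128 to 147 against 65.7 to 70.5). Among the myeloid markers Cd14 passed lower (log2 fold change -0.47, adjusted p = 0.0038). With each library centred on the T-cell markers, 4 of the B-cell markers were higher and 3 lower, and 5 of the myeloid markers were higher and 2 lower. Most myeloid markers were low: among genes averaging 5 FPKM or more, as deposited, 3 were tested. Of these, 1 passed higher and 1 lower (median log2 fold change 0.004). No marker of these lists was at 0 in every library. The libraries thus held RNA of other cells, although the T cells had been taken from spleen with a pan T-cell isolation kit. In bulk RNA, fewer cells of a type and less RNA per cell cannot be told apart, and the part of the ID8, B-cell and myeloid RNA in the changes of the G1 genes was not tested.

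Under the same centring on the 20 T-cell markers, 8 of the 10 G1 genes passed lower and Ccne1 alone passed higher. Of all genes tested 66% then passed lower and 4.76% higher, so the count of lower genes was near the background. With the fold minimum 24.4% of all genes were called, and Ccnd1 and Cdkn2c were the 2 of the 10. That centring moved the median of all genes from 0.03 to -0.55, so values relative to this median are also given. Ccne1 then had a log2 fold change of 0.25 (limma adjusted p = 0.0316), against 0.98 with quantile normalization and 0.92 with limma's voom on the rebuilt reads. Relative to the median of all genes it stood at 0.79 to 0.82 over 6 scalings. Cdkn2c was at -1.61 after the centring, -0.91 with quantile normalization and -0.96 with voom, which is -1.07 to -1.06 relative to the median. Most of these scalings move all genes of a library together, which leaves a value relative to the median nearly unchanged. The narrow ranges of Ccne1 and Cdkn2c are therefore no check of the scaling. Ccnd3 passed lower in TPM (-0.14, adjusted p = 0.0253) and after the centring (-0.69, adjusted p = 1.1e-05), and Ccne2 after the centring alone (-0.85, adjusted p = 0.0031). With quantile normalization Ccnd3 was at -0.01 (limma adjusted p = 0.831) and with voom at -0.04 (limma adjusted p = 0.472), so its fall depended on the scaling. Cdkn2a turned from 0.42 to -0.16 after the centring (adjusted p = 0.478) and passed higher with quantile normalization (0.60, adjusted p = 0.0294), so no direction can be given for it. The 7 genes that passed as deposited kept their direction and passed under each of the 6 scalings, with Ccnd1 at -1.14 to -0.47, Cdk6 at -0.99 to -0.30 and Cdkn1b at -0.86 to -0.21.

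**Figure D3:**
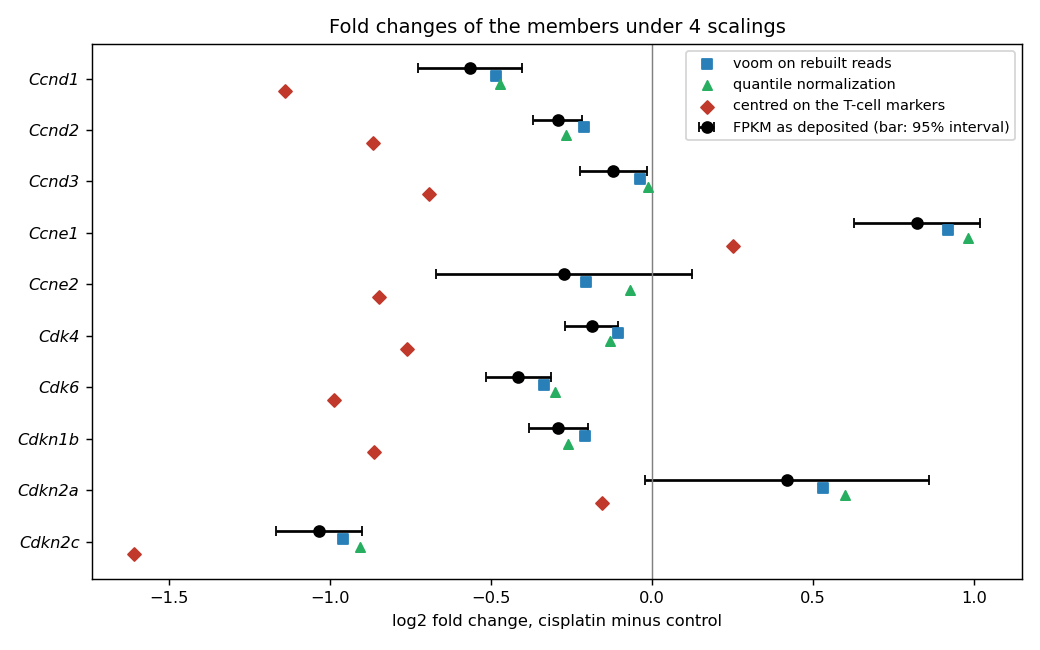
Log2 fold change (horizontal axis, cisplatin minus control) of the 10 genes for FPKM as deposited with its 95% interval, for voom on rebuilt reads, for quantile normalization and after centring on T-cell markers. The centring shifts every gene to the left, Ccne1 stays above 0 at 0.25, and Cdkn2a crosses from 0.42 to -0.16.

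Genes up- and downstream of these 10 in the pathway were followed as lists, and their directions depended on the scaling. The counts as deposited stand beside 29% of all genes lower and 27.5% higher. The counts after centring on T-cell markers stand beside 66% of all genes lower and 4.76% higher under that centring. Of the 4 other CDK inhibitors, Cdkn1a, which encodes the p53 target p21, fell from 28.9 ± 1.24 to 20.7 ± 1.49 FPKM (SD, n = 3, log2 fold change -0.48, limma adjusted p = 0.00059). Cdkn2b, which encodes p15, passed higher as deposited, at 1.46 against 0.942 FPKM (log2 fold change 0.61, adjusted p = 0.0394), but was at 0.04 after centring on T-cell markers, and without any single library other than control replicate 3 only 1 of these inhibitors passed. Cdkn2d, which encodes p19, did not pass (0.04, adjusted p = 0.442), and Cdkn1c, which encodes p57, was below the filter. In the CDK2 module and CDK-activating kinase, 4 of 9 genes passed higher and 1 lower, against 0 higher and 8 lower after the centring. Cdk2, the partner of cyclin E, was at 10.6 ± 0.43 against 8.16 ± 0.36 FPKM (log2 fold change 0.38, adjusted p = 0.001, and -0.20 after the centring), and Cks1b, a CDK-binding subunit that helps degrade p27, was at 0.48 and -0.09. Mnat1, an assembly factor of the CDK-activating kinase, was lower both ways (-0.42 and -0.99).

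In the RB and E2F family 7 of 13 genes passed higher and 2 lower, against 0 and 10 after the centring. Rb1, which encodes RB itself, was at 13.5 ± 0.63 against 10.9 ± 0.49 FPKM (log2 fold change 0.31, adjusted p = 0.0026, and -0.26 after the centring). E2f1, an activating E2F, fell from 8.33 ± 0.75 to 6.33 ± 0.74 FPKM (log2 fold change -0.39, adjusted p = 0.0163, and -0.97 after the centring). E2f8, a repressive E2F, had the highest log2 fold change of the list, at 0.75 as deposited, and 0.18 after the centring, where it did not pass (adjusted p = 0.156). Among 20 E2F targets of S phase 12 passed higher and 2 lower, against 1 and 14 after the centring. The gene higher both ways was Rrm2, a subunit of ribonucleotide reductase, at 29.3 ± 1.48 against 14.1 ± 0.90 FPKM (log2 fold change 1.05, and 0.48 with adjusted p = 0.00073 after the centring). Its partner subunit gene Rrm1 fell both ways (-0.32 and -0.89), as did Gmnn, the inhibitor of replication licensing geminin (-0.62 and -1.19). The licensing factor Cdc6 was at 0.72 and 0.15 and the helicase subunit Mcm5 at 0.51 and -0.06.

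Of 12 proliferation markers of G2 and M, 4 passed higher and 1 lower, against 0 and 10 after the centring. Mki67, which encodes the proliferation antigen Ki-67, was at 35.2 ± 1.20 against 22.8 ± 0.78 FPKM (SD, n = 3, log2 fold change 0.62, limma adjusted p = 2.5e-05), and at 0.05 after the centring (adjusted p = 0.387). Cdc20, an activator of the anaphase-promoting complex, was at 0.54 and -0.03, and the mitotic kinase Aurka was lower both ways (-0.22 and -0.79). Of 9 quiescence and antiproliferative factors 5 passed higher and 3 lower, against 1 and 7 after the centring. Tob1, an antiproliferative protein of resting T cells, fell from 41.5 ± 1.31 to 19.6 ± 1.503 FPKM (log2 fold change -1.08, adjusted p = 1.1e-05, and -1.66 after the centring), and Slfn2, needed for T-cell quiescence, was higher both ways (0.71 and 0.13). Foxo3, a transcription factor that can induce Cdkn1b, was lower both ways (-0.31 and -0.89), whereas Foxo1 was at 0.33 and -0.24. Median log2 fold changes of these 6 lists lay between 0.04 and 0.33 as deposited and between -0.53 and -0.24 after the centring, beside 0.03 and -0.55 for all genes tested.

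**Figure D4:**
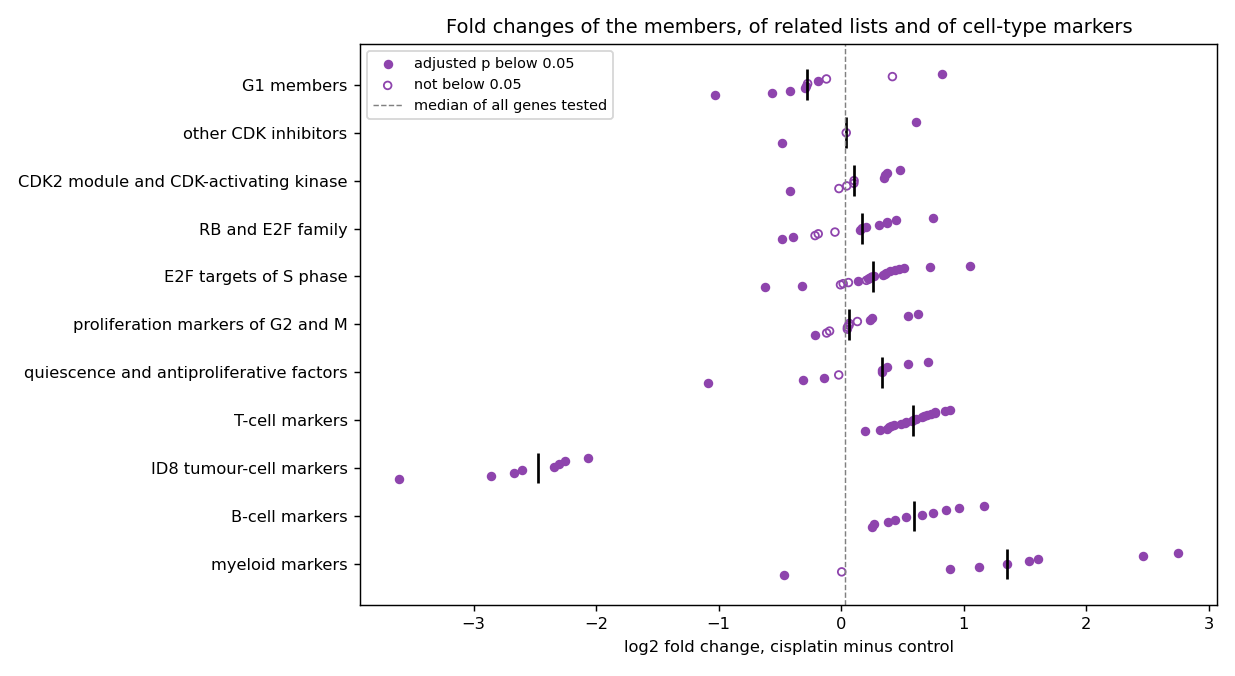
Log2 fold change as deposited (horizontal axis, cisplatin minus control) of each gene of the G1 set, of related lists and of cell-type markers, with filled points where the adjusted p was below 0.05, black bars for list medians and a dashed line for the median of all genes (0.03). The 8 ID8 marker points lie below -2 and T-cell marker points above 0, and the medians of the 6 related lists, 0.04 to 0.33 here, lie between -0.53 and -0.24 after centring on T-cell markers.

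The genes whose centred profiles over the 6 libraries lay nearest to each D-type cyclin, among 7657 protein-coding genes averaging 5 FPKM or more, were listed as a description. They were Fbxl19, Cbx6 and Fam136a for Ccnd1 (Euclidean distances of log2 values 0.0747 to 0.0862), Dnajc5, Paip1 and Pdcd6ip for Ccnd2 (0.0366 to 0.0413) and Pskh1, Gatad2a and Gga1 for Ccnd3 (0.0310 to 0.0486). Some of the 10 genes overlap a gene on the opposite strand, and whether reads were counted by strand is not given in the sources used here. Shared bases below are of whole gene spans, introns included, and the overlap of exons was not measured. Cdk4 shares 641 bases with Tspan31, which was at 11.6 to 13.1 FPKM in cisplatin and 22.8 to 23.1 FPKM in control libraries. Ccne2 shares 5622 bases with Ints8, at 6.19 to 6.62 against 8.66 to 9.18 FPKM. Ccnd1 shares 1771 bases with Oraov1 (3.24 to 3.57 against 2.82 to 3.24 FPKM), and Ccnd3 shares 361 with Bysl (4.99 to 6.25 against 3.31 to 3.99 FPKM), and neither of these neighbours had a lower mean in the cisplatin group. Ccnd2 and Cdk6 overlap antisense genes at no more than 0.628 FPKM in any library. Ccne1, Cdkn1b, Cdkn2a and Cdkn2c overlap no other gene in the table.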

How the data were processed

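Poly(A) RNA libraries of co-cultured mouse T cells (3 cisplatin, 3 control, grouped by the titles in the labels) were analysed. The authors deposited FPKM per gene. The paper names LifeScope for alignment and counting, whereas the submitters' processing notes name fastp, HISAT2 2.0.5, featureCounts 1.5.0-p3 and mm10. Which made the values, and the strand setting, are not given in the sources used here. FPKM times gene length gave whole reads (within 0.1 of a read for 100% of values above 0), with 30606569 to 32169496 reads on genes a library. They cover counting error only. The deposited scaling divided by 1.04 times these reads on average in cisplatin and 0.980 times in control libraries. Replicates of a group differed by more than counting noise.

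log2(FPKM + 0.1) was fitted with limma 3.58.1 (R 4.3.3, lmFit, eBayes with trend) over 15874 genes averaging 0.5 FPKM or more, with Benjamini-Hochberg adjustment over all of them. A called gene also needed a fold change of at least 2. The main fit used no count model because the deposited unit is FPKM, although whole reads could be rebuilt. Shares and ratios within a library were compared by two-sided exact permutation tests (scipy 1.17.1). The main limma fit was tested on simulated counts in which few genes changed, equally in both directions. The other scalings, voom and the permutation tests were not tested on simulated data. Alternatives were other pseudocounts (1, 0.01), filters (5 FPKM, none), scalings (median of ratios, quantile, centring on T-cell markers, TPM), no variance trend, voom on rebuilt reads (at least 10 in at least 3 libraries), the replicate number as a block, leaving out each library, and no fold minimum.

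The 10 genes and all lists were chosen with earlier results of these data known. Genes named were the 10, the 3 profiles nearest to each D-type cyclin, and Cdkn1a, Cdk2, Rb1, E2f1, Mki67, Krt19 and Cd3e. From the related cell-cycle lists, all called genes were named. Further genes of these lists were named as well, not strictly by log2 fold change. Genes that passed but were not described include Btg1 (log2 fold change 0.54) and Tfdp2 (-0.48). Of the cell-type markers only Krt19, Cd3e and Cd14 were named, and other called ID8, B-cell and myeloid markers were not. Cdkn2d, Cdkn1c and the overlapping neighbours were named after their values were seen. Coordinates are those of the deposited table. Promoters are from RefSeq (GRCm38.p6).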

Additional observations from a re-analysis of the deposited data

How the results depend on the processing

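With a fold change of at least 2 required, 1 of the G1 genes was called. This became 0 with a pseudocount of 1, with quantile normalization and with voom, 2 after centring on T-cell markers (24.4% of all genes), 7 without the fold minimum, and 0 to 1 when single libraries were left out. Without the fold minimum, 7 to 8 passed when single libraries were left out. Ccnd3 passed with the 5 FPKM filter (limma adjusted p = 0.0428), in TPM (0.0253), after the centring (1.1e-05) and without cisplatin replicate 2 (0.0483). It was far from passing with quantile normalization (log2 fold change -0.01, adjusted p = 0.831) and with voom (-0.04, adjusted p = 0.472). Cdkn2a passed without cisplatin replicate 3 (log2 fold change 0.56, adjusted p = 0.0404). Cdkn2a reversed to -0.16 after centring on T-cell markers. All genes called numbered 2687, or 1762 with a pseudocount of 1, 1145 with the 5 FPKM filter, 8963 without the fold minimum, 3872 after the centring, 3550 with voom, and 2600 to 2692 with a library left out. The share of calls that were lower was 75.7%, against 64.6% with quantile normalization and 96.4% after the centring. Other CDK inhibitors that passed numbered 2, or 1 with the 5 FPKM filter, 1 without a filter, 1 with the replicate block and 1 to 2 with a library left out. The CDK2 module had 5, or 3 with the 5 FPKM filter and 8 after the centring, and the proliferation markers 5, or 10 after the centring. The cause was not tested, except that a stricter filter tests fewer genes.

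Libraries with the same replicate number did not deviate together (correlations 0.0229, -0.0630 and -0.0207), and not every library correlated best with its own number. With the replicate number as a block, 7 G1 genes passed, 1 was called and 2662 genes were called in all. The paired exact tests of shares and ratios could go no lower than 0.25. Low depth limits Cdkn2a, at 35 to 66 reads a library.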
